A study of Mus musculus with 6 samples.

Results

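The regions described here are the ATRX peaks of mouse chromosome 6, 203 of 2054 peaks (9.88%) in mouse embryonic fibroblasts (MEFs) and 45 of 983 peaks (4.58%) in erythroid cells of foetal liver. Members were chosen by chromosome from the called peaks of both lists, with the count on this chromosome and its group at the distal end already known, so neither of these is tested and both are given as a description. The 2 lists come from chromatin immunoprecipitation and sequencing with the ATRX antibody H300 in C57BL/6 cells, with 1 library each. The first library is from cultured MEFs and the second from cells of embryonic day 14.5 livers that were enriched with magnetic beads for Ter119, a surface protein of maturing red cells. No gene was deleted in either group and no agent was given, as far as the labels say. Of the 6 samples in the series, the other 4 (the C57BL/6 MEF input, ATRX and input libraries of MEFs labelled W8, and ATRX in MEFs without Suv39h1 and Suv39h2) were not analysed here. The labelled cell types could not be checked, since peak lists hold no expression.

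ATRX is a chromatin remodelling ATPase of the SWI/SNF family. Together with the chaperone DAXX it loads a variant of histone H3 onto DNA at telomeres, at heterochromatin beside centromeres and at other repeats, and it is known for binding guanine-rich tandem repeats. In red cells ATRX is best known for its part in the expression of the alpha-globin genes, whose output falls in people born with ATRX mutations. Mouse chromosomes carry the centromere at one tip, so that the sequence begins beside the centromere and ends beside the telomere of the long arm, here called the distal end.

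Chromosome 6 was dense in the MEF list and ordinary in the foetal liver list. MEF peaks lay at 1.39 per Mb of its 146.5 Mb of sequence, the third highest density of 21 chromosomes after chromosomes 10 and 19 (1.77 each), where the median chromosome had 0.71. Foetal liver peaks lay at 0.307 per Mb, which ranked 16 of 21, where the median chromosome had 0.367. The MEF list held 4.51 peaks on this chromosome for each foetal liver peak, against 2.09 over the whole lists. This was the highest ratio of the 21 chromosomes, closely followed by chromosome 10 (4.25) and then by chromosome 15 (2.91). With 1 library per cell type there is no replicate, and peaks of a library are not replicates of a condition, so no comparison below carries a p-value. Depth, control and peak calling may differ between the 2 libraries and are recorded in neither file, so their part in any contrast of cell types cannot be told apart from it.

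**Figure D1:**
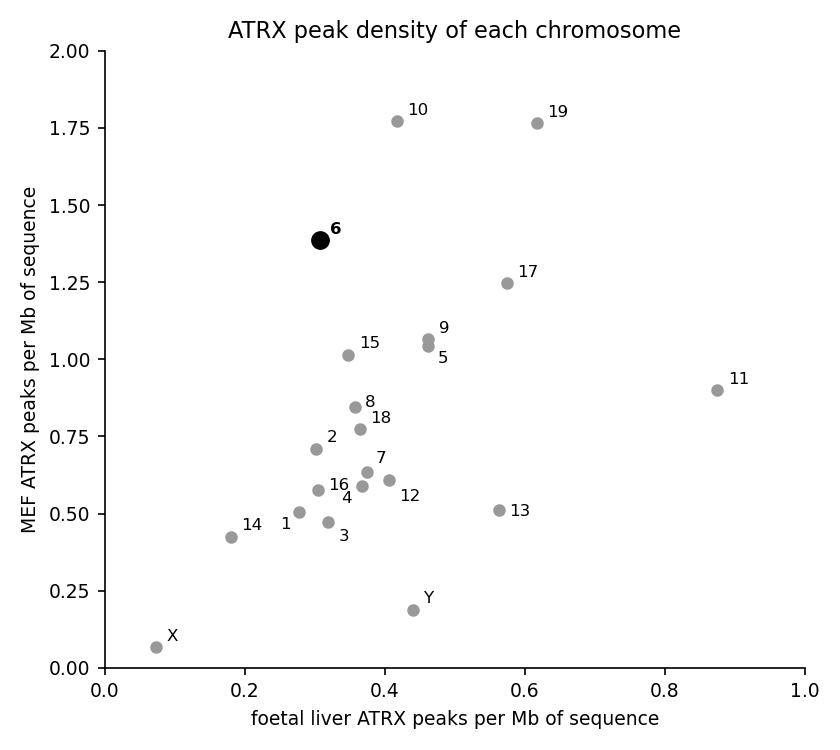
Each point is a chromosome, with its foetal liver peaks per Mb of sequence on the x axis and its MEF peaks per Mb on the y axis. Chromosome 6 (black) lies at 0.307 and 1.39, above every other chromosome of similar foetal liver density.

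The densest band of chromosome 6 differed between the 2 lists. By Giemsa band, the staining pattern that divides a chromosome into gene-rich light and gene-poor dark segments, the highest MEF density lay in 6qG3, the last band before the telomere (142676389 to 149517037 in mm9). This band held 34 MEF peaks, or 4.97 per Mb, which ranked 1 among the 350 mouse bands with at least 2 Mb of sequence. Band 19qD2 was close behind with 36 MEF peaks (4.92 per Mb). Of the 34 peaks of 6qG3, 10 were the group at the distal end. That group was part of the choice of this chromosome, so nothing is read from the rank. Band 6qG3 held 2 foetal liver peaks, or 0.292 per Mb, which ranked 151. Outside 6qG3 the other 169 MEF peaks lay at 1.21 per Mb, a density that 3 other chromosomes exceeded.

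The next densest MEF bands were 6qB1 with 19 peaks (2.59 per Mb), 6qF2 with 6 peaks and 6qB2.3 with 12 peaks (2.46 per Mb each), and 6qE3 with 15 peaks (2.05 per Mb). In foetal liver the densest band was 6qB1 with 8 peaks (1.09 per Mb), followed by 6qG1 with 7 peaks (0.955 per Mb) and 6qC1 with 7 peaks (0.597 per Mb). Band 6qB1 was thus high in both lists, and 6qG3 in the MEF list. In 6qG1, where foetal liver had 7 peaks, the MEF density of 1.23 per Mb (9 peaks) was near that of the chromosome as a whole.

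Foetal liver had more low stretches, but also fewer peaks on this chromosome, 45 against 203 in MEFs. Counts of empty windows and bands follow the number of peaks, so the lists are not compared by them. Among the 142 windows of 5 Mb taken at steps of 1 Mb, the median held 6 MEF peaks and 1 foetal liver peak, and 4 windows had no MEF peak whereas 51 had no foetal liver peak. The fullest such window held 25 MEF peaks (142 to 147 Mb), and in foetal liver 7 (136 to 141 Mb). The first band, 6qA1, held 12 MEF peaks and 0 foetal liver peaks, and the foetal liver list began at 17683778 whereas the MEF list began at 3150734, soon after the unsequenced first 3 Mb. Bands 6qA3.2, 6qB2.2 and 6qC2 held 0 peaks in either list.

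**Figure D2:**
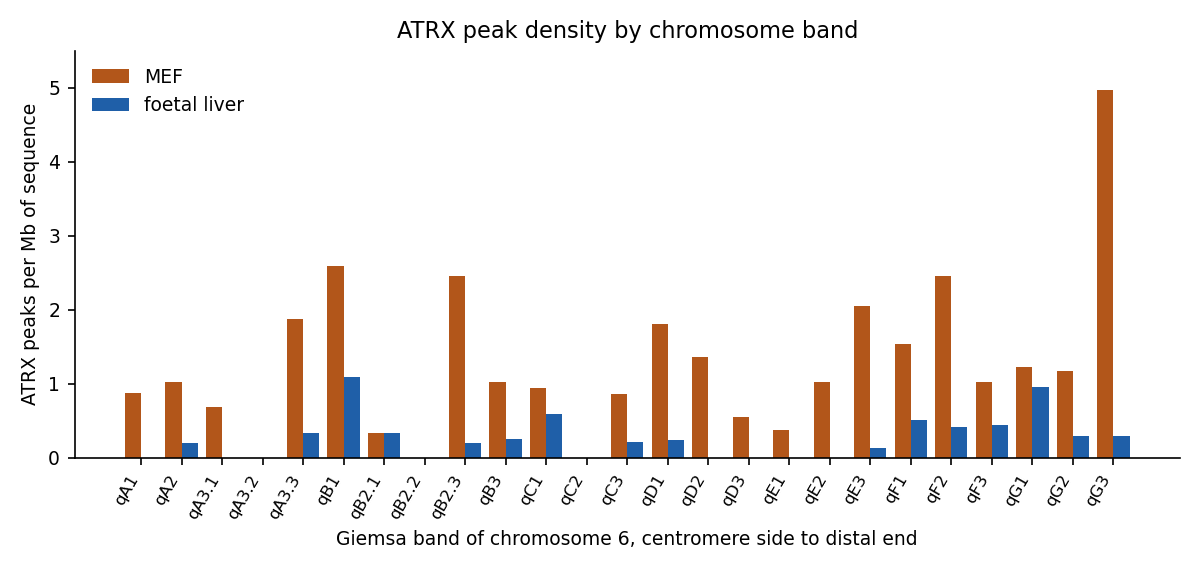
Bars give ATRX peaks per Mb of sequence in each Giemsa band of chromosome 6 (x axis, centromere side to distal end) for MEF and foetal liver. The MEF bar of 6qG3 reaches 4.97 per Mb, and the highest foetal liver bar is 6qB1 at 1.09 per Mb.

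The share of peaks in light bands was not clearly apart from the share of length in either list. On the other chromosomes 47.4% of MEF peaks lay in light bands, which make up 41.6% of the length there. In MEFs 76 of 203 peaks (37.4%, exact Clopper-Pearson 95% interval 30.8 to 44.5%) lay in Giemsa-light bands, which make up 42.02% of the sequenced chromosome, and 46.4% of all MEF peaks of the genome lay in such bands. In foetal liver it was 21 of 45 peaks (46.7%, 31.7 to 62.1%) against 45.6% of all foetal liver peaks. These intervals, and those below, cover the counting of peaks only. Both light-band intervals hold the 42.02% share of length. In MEFs the light bands had 1.23 peaks per Mb, near the 1.21 per Mb of chromosome 6 outside the dark band 6qG3. The palest dark class, to which 6qG3 belongs, held 42 MEF peaks in 10.7 Mb, or 3.91 per Mb, where this class averaged 0.875 per Mb on the other chromosomes. Of these 42, 34 were the peaks of 6qG3, and the other bands of the class on chromosome 6, 6qD2 and 6qF2, held 8 in 3.91 Mb, or 2.05 per Mb. The same class held 3 foetal liver peaks (0.279 per Mb, against 0.478 per Mb on other chromosomes). In the darkest class the MEF density was 1.11 per Mb (55 peaks) and the foetal liver density 0.201 per Mb (10 peaks), beside 0.599 and 0.245 per Mb on the other chromosomes.

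The distal group of the MEF list was a run of 10 peaks within 222.9 kb (149089473 to 149312353), which ended 204.7 kb before the last assembled base. It was the densest 1 Mb window of the chromosome in MEFs, and all 10 peaks of the last 1 Mb lay in it. Of MEF peaks on chromosome 6, these made up 4.93% (2.39 to 8.87%), against 1.41% of all MEF peaks on the 20 chromosomes other than Y. Since the group was part of the choice of this chromosome, nothing is read from that contrast. Among other chromosomes the most MEF peaks in a last 1 Mb was 4, and 12 of 21 had 0. The nearest MEF peak outside the window lay 1188 kb before the group (147899651 to 147901630, 1980 bp).

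The group began with a peak of 1186 bp (149089473 to 149090658), followed after 25.5 kb by one of 2543 bp (149116177 to 149118719). A close pair came next, of 1593 bp (149140205 to 149141797) and 1447 bp (149141910 to 149143356), with 112 bp between them. A second close pair, of 1073 bp (149171877 to 149172949) and 657 bp (149173323 to 149173979), was 373 bp apart. Thus 4 of the first 6 peaks stood in pairs with gaps smaller than either member's width.

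Farther out came wider peaks, of 2961 bp (149208420 to 149211380) and 5004 bp (149224380 to 149229383), the latter among the 10 widest MEF peaks of the chromosome. After the largest gap of the group, 78.02 kb, the last pair measured 898 bp (149307401 to 149308298) and 3669 bp (149308685 to 149312353), 386 bp apart. The 10 peaks covered 21.03 kb, 9.44% of the span they occupied and 6.79% of the length covered by MEF peaks on the chromosome. Their median width was 1520 bp, against 1062 bp for the other MEF peaks of chromosome 6, and 4 of the 10 were 2 kb or wider.

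Foetal liver had 2 peaks in the same place, both among the first MEF peaks of the group. The peak at 149141910 to 149143356 (1447 bp) had exactly the same start and end as the second member of the first MEF pair. The other, at 149136939 to 149137677 (739 bp), lay 2.53 kb before a MEF peak and overlapped none. These 2 peaks (4.44% of foetal liver peaks on chromosome 6, interval 0.543 to 15.1%, against 2.15% over the 20 chromosomes) were 4.23 kb apart and were the last in that list. The peak before them was 8.95 Mb away (140189793 to 140190389), a stretch that held 30 MEF peaks. The outer part of the group, from 149171877 on, thus had 6 MEF peaks and 0 foetal liver peaks.

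**Figure D3:**
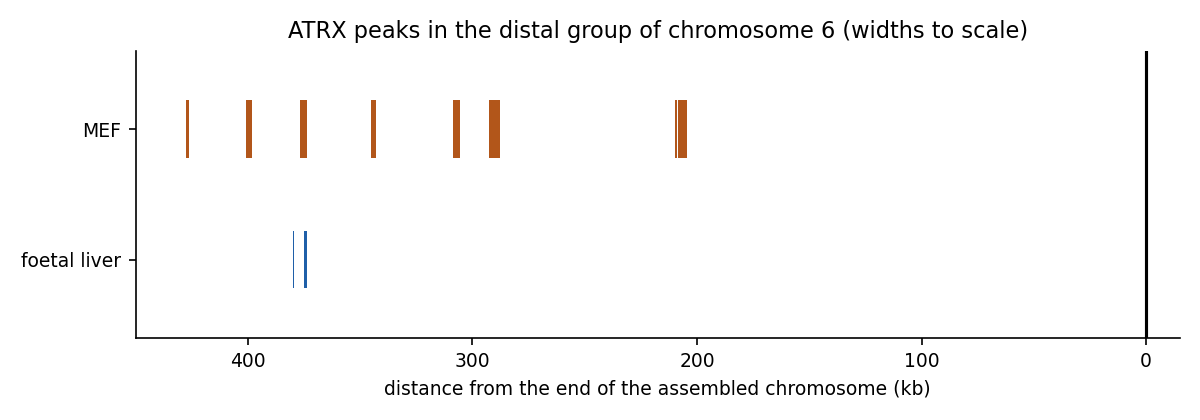
Boxes mark ATRX peaks of the distal group in the MEF and foetal liver lists by distance in kb from the last assembled base of chromosome 6 (black line), with widths to scale. The MEF peaks span 222.9 kb and stop 204.7 kb short of the end, and at this scale the pairs with gaps of 112 and 373 bp merge, whereas both foetal liver peaks fall near the first MEF pair.

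The last 0.5 Mb held the same 10 MEF and 2 foetal liver peaks as the last 1 Mb. Widening the window to 5 Mb added MEF peaks, to 27, but no foetal liver peak. On the other chromosomes the last 5 Mb held 8.47 MEF peaks on average and 20 at most. In the last 10 Mb chromosome 6 had 38 MEF peaks, fewer than the highest of the other chromosomes (41). Such counts also follow the number of MEF peaks on a chromosome. As shares, the last 5 Mb held 13.3% of MEF peaks of chromosome 6, against 8.71% on the other chromosomes without Y. For the last 10 Mb it was 18.7% against 18.1%, nearly the same. Beyond the group, the last 5 Mb thus held further MEF peaks and no further foetal liver peak.

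Band 6qG3 before the last 1 Mb held 24 MEF peaks spread over 5.2 Mb (142698258 to 147901630) and 0 foetal liver peaks. None of these 24 had another MEF peak within 10 kb, and the gaps between them ran from 43.5 to 972.9 kb with a median of 164.4 kb. Their widths ran from 552 to 2932 bp with a median of 1400 bp. With gaps of at most 100 kb chained, 15 of the 24 stood alone and 9 fell into 4 stretches of at most 3 peaks. The median gap was thus longer before the distal group than within it.

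**Figure D4:**
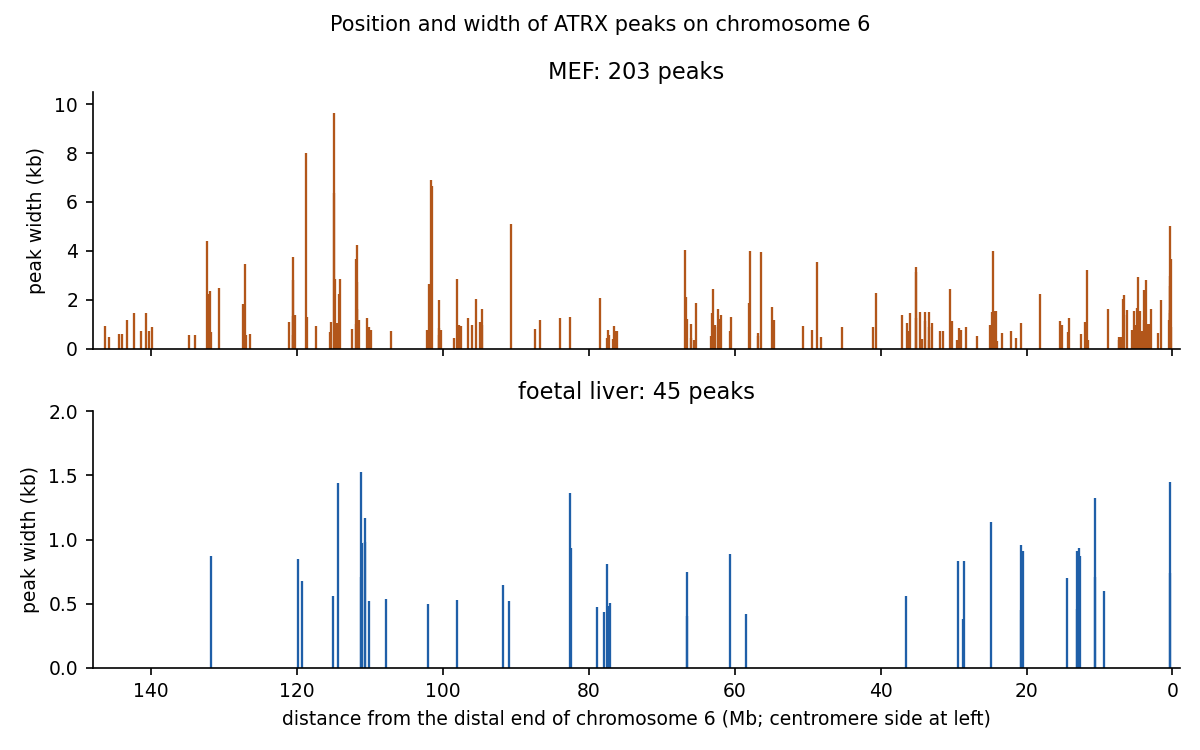
Vertical lines show each ATRX peak of chromosome 6 at its distance in Mb from the distal end, with the peak width in kb as height, for MEF (top) and foetal liver (bottom, with a shorter y axis). MEF peaks reach 9653 bp and crowd toward the distal end, whereas no foetal liver peak exceeds 1523 bp.

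MEF peaks on chromosome 6 were wider than foetal liver peaks there. The median MEF width was 1072 bp (interval 948 to 1210 bp, 203 peaks), with the middle 50% from 715.5 to 1665 bp and the narrowest at 319 bp. The median foetal liver width was 739 bp (563 to 875 bp, 45 peaks), with the middle 50% from 519 to 931 bp and the narrowest at 379 bp. On all other chromosomes together the medians were 1012 and 673.5 bp, and both fall within the intervals of the chromosome 6 medians. Ranked by median width, chromosome 6 was seventh in MEFs and second in foetal liver of 21.

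The upper tails of the widths differed more. In MEFs 45 of 203 peaks (22.2%, 16.7 to 28.5%) were 2 kb or wider, against 18.5% of all MEF peaks, and these 45 held 51.5% of the covered length. In foetal liver 0 of 45 were (exact interval 0 to 7.87%; a limit of 3 counts gives a share of up to 6.67%), against 4.68% of all foetal liver peaks. Peaks of 5 kb or more numbered 7 in MEFs (3.45%, against 3.07% of all MEF peaks) and 0 in foetal liver, where 1.53% of all peaks reached that width. The widest foetal liver peak of chromosome 6, 1523 bp, ranked 20 among the widest peaks of the 21 chromosomes, although its median ranked second.

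The 10 widest MEF peaks stood in several bands, and some of them lay near each other. The widest, 9653 bp (34651073 to 34660725), stood in band 6qB1, 48.1 kb from a peak of 6363 bp (34596594 to 34602956), another of the 10 widest. The second widest, 7998 bp (30684846 to 30692843), stood in 6qA3.3. A pair in 6qB2.3 of 6901 bp (47852589 to 47859489) and 6656 bp (47971606 to 47978261) was 112.1 kb apart. Of the 10 widest, 8 lay before 60 Mb, and the others were in 6qC3 (82698485 to 82702516, 4032 bp) and in the distal group. Successive 10 Mb steps up to 60 Mb held 4.93, 3.45, 4.93, 11.8, 6.4 and 5.42% of all MEF peaks of chromosome 6. The bound of 60 Mb was chosen after the values were seen, so nothing is read from this count.

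The remaining members of the 10 widest were in 6qB3 (58854618 to 58859716, 5099 bp), 6qA2 (17194863 to 17199283, 4421 bp) and 6qB1 (37747748 to 37751968, 4221 bp). None of the 10 overlapped a foetal liver peak, and the nearest foetal liver peak to any of them was 81.02 kb away, the shared peak within the distal group. Of all 203 MEF peaks of chromosome 6, 0.493% overlapped a foetal liver peak, against 3.12% of all MEF peaks. A foetal liver peak lay within 100 kb of 12.8% of the 203, so the lack of overlap is not particular to the widest. Together the 10 widest covered 60.3 kb, 19.5% of the MEF-covered length of chromosome 6.

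In foetal liver the widest peaks were of ordinary MEF size. The widest (38270605 to 38272127, 1523 bp) lay in 6qB1, followed by the shared distal peak of 1447 bp, a further 6qB1 peak (35202736 to 35204175, 1440 bp) and a peak in 6qC1 (66985272 to 66986636, 1365 bp). Next were 138906568 to 138907893 (1326 bp, 6qG1), 38849415 to 38850583 (1169 bp, 6qB1) and 124690474 to 124691607 (1134 bp, 6qF2). The others of the 10 widest ran from 960 to 980 bp, at 38860607 to 38861586 and 38483211 to 38484186 in 6qB1 and at 128748814 to 128749773 in 6qF3. Of these 10, 5 were in band 6qB1.

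**Figure D5:**
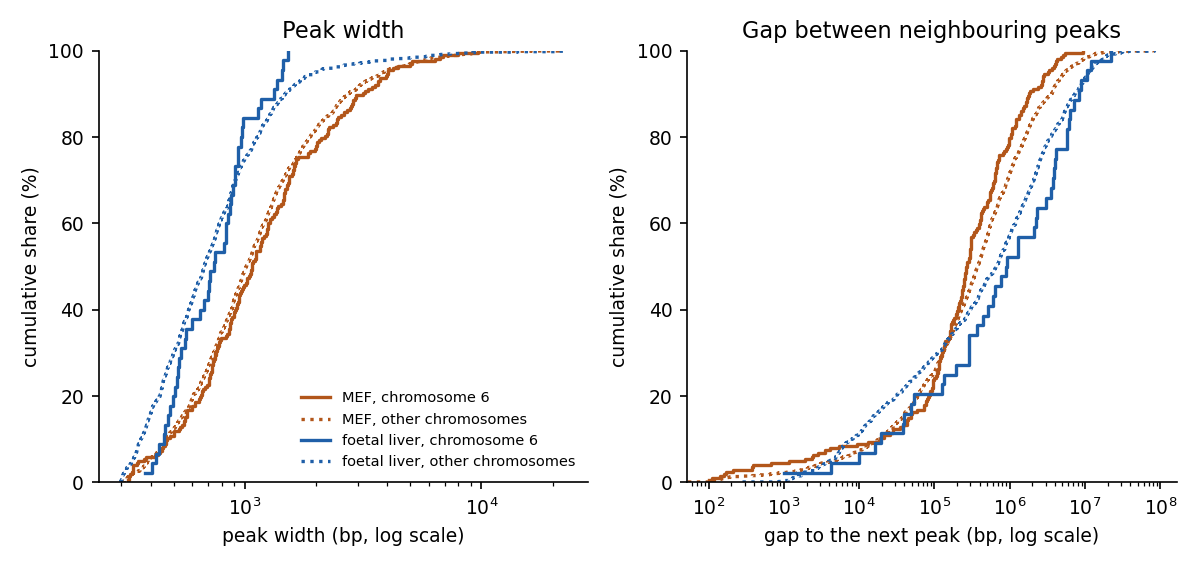
Curves give the cumulative share of peaks by width in bp (left) and of gaps between neighbouring peaks in bp (right), both on log x axes, for chromosome 6 (solid) and the other chromosomes (dotted) in MEF and foetal liver. The foetal liver curve of chromosome 6 ends at 1523 bp on the left, and on the right the MEF gaps of chromosome 6 (median 267.4 kb) lie left of those of other chromosomes (370.8 kb) while the foetal liver gaps (913.1 kb) lie right of theirs (665.3 kb).

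Spacing on chromosome 6 was shorter than elsewhere in MEFs and longer in foetal liver. Gaps shorten as peak density rises, and the count on this chromosome was known at its choice. This contrast largely restates that count and is only described. The median gap was 267.4 kb in MEFs (202 gaps, middle 50% from 109.4 to 711.1 kb), against 370.8 kb on other chromosomes. In foetal liver it was 913.1 kb (44 gaps, 176.5 to 4058 kb), against 665.3 kb. If peaks stood at equal distances, the MEF gap would be 718.2 kb and the foetal liver gap 3185 kb. In both lists more than 50% of gaps were thus shorter than even spacing would give. Peaks placed at random would also give this, so nothing about clustering is read from it.

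Close neighbours were found in both lists. Another MEF peak lay within 10 kb for 32 of 203 peaks (15.8%, 11.04 to 21.5%), against 13% of all MEF peaks. In foetal liver it was 4 of 45 (8.89%, 2.48 to 21.2%), against 18.8% of all foetal liver peaks. Of 21 chromosomes, chromosome 6 ranked 5 by the MEF share and 18 by the foetal liver share. A gap of at most 10 kb counts both its peaks, and there were 18 such gaps in MEFs and 2 in foetal liver. The intervals treat linked peaks as separate, and the shares move with the number of peaks. The lists are therefore not compared by them.

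The smallest MEF gaps were 102 bp (before 116191814), 112 bp in the distal group, 143 bp (before 114410136), 160 bp (before 116192324) and 169 bp (before 28990073). In all, 9 MEF gaps were under 1 kb, of which 3 belonged to the distal group. Foetal liver gaps began at 1012 bp (before 138906568), followed by 4232 bp in the distal group and then 10023, 16115 and 19477 bp. These 9 MEF gaps were thus smaller than any foetal liver gap of chromosome 6.

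When peaks with gaps of at most 100 kb were chained, MEF peaks fell into 154 stretches and foetal liver peaks into 36. A peak alone in its stretch was the usual case, with 125 of 203 MEF peaks (61.6%, 54.5 to 68.3%; 59.2% of all MEF peaks) and 27 of 45 foetal liver peaks (60%, 44.3 to 74.3%; 54.7% of all foetal liver peaks). The distal group was the only MEF stretch of 5 or more, so 4.93% of MEF peaks of chromosome 6 stood in such stretches, against 6.91% of all MEF peaks. In foetal liver no stretch exceeded 2 peaks, and 0 of 45 peaks stood in a stretch of 5 or more, against 9.77% of all foetal liver peaks. MEF peaks in stretches had a median width of 1229 bp (78 peaks) and those alone 993 bp (125 peaks), beside 1070 and 985 bp on other chromosomes.

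The largest MEF stretches after the distal group held 4 peaks each. At 28979436 to 28990639 in 6qA3.3 these 4 peaks covered 8.41 kb of 11.2 kb, nearly end to end. At 37733613 to 37802447 in 6qB1 they covered 9.29 kb of 68.8 kb, and at 47599019 to 47722107 in 6qB2.3 3.62 kb of 123.1 kb. A stretch of 3 in 6qB1 (34596594 to 34665498) held the widest peak of the chromosome and covered 18.9 kb. None of these 4 stretches had a foetal liver peak inside, but neither did any other MEF stretch of chromosome 6 except the distal group. Foetal liver peaks lay at 0.307 per Mb, so spans this short would seldom hold one, and nothing is read from it. The densest foetal liver window held 5 peaks over 591 kb of 6qB1 (38270605 to 38861586), and that span had 0 MEF peaks. MEF peaks lay at 1.39 per Mb on this chromosome, so a span of this length can easily hold none. Nothing is read from their absence there.

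Stretches without peaks were long in both lists. The longest in the MEF list were 9.32 Mb (73380094 to 82698484), 5.46 Mb (23017948 to 28481188) and 5.05 Mb (9676970 to 14726436), and each of the 3 also held 0 foetal liver peaks. The foetal liver list had 21.9 Mb (91113924 to 113025811), 11.97 Mb (17684653 to 29650730) and 10.6 Mb (72357664 to 82964326), which held 15, 12 and 6 MEF peaks. The stretch from 73380094 to 82698484, which takes in all of 6qC2, was thus empty in both lists.

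The 2 lists shared a single region on chromosome 6, the distal peak at 149141910 to 149143356. This is 1 of 203 MEF peaks (0.493%, 0.0125 to 2.71%), against 3.12% of all MEF peaks, and 1 of 45 foetal liver peaks (2.22%, 0.0562 to 11.8%), against 6.21% of all foetal liver peaks. Both boundaries were identical, and whether they were drawn separately for each library is unknown. Equal extents were not particular to this site. The widest peak also had the same width in both lists on chromosomes 1 (21289 bp), X (14118 bp) and Y (8163 bp), among others.

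Nearness without overlap was more frequent. A MEF peak lay within 10 kb of 8 of 45 foetal liver peaks (17.8%, 8.0 to 32.05%), against 12% of all foetal liver peaks, and within 100 kb of 20 (44.4%, 29.6 to 60%), against 33.3%. Seen from the MEF list, 8 of 203 peaks (3.94%, 1.72 to 7.62%) had a foetal liver peak within 10 kb, against 5.74% of all MEF peaks, and 26 (12.8%, 8.54 to 18.2%) within 100 kb, against 15%. A denser MEF list is nearer to any position, so these shares move with the number of peaks. The median distance from a foetal liver peak to the nearest MEF peak was 159.8 kb on chromosome 6 and 226.6 kb on other chromosomes. From a MEF peak to the nearest foetal liver peak it was 1033 kb on chromosome 6 and 612.9 kb on other chromosomes, the opposite order.

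Besides the distal pair, 6 foetal liver peaks lay within 10 kb of a MEF peak. The nearest were in 6qC1 (66985272 to 66986636, 2.07 kb from the MEF peak at 66981901 to 66983201), in 6qB1 (35202736 to 35204175, 2.41 kb from 35206586 to 35207417) and in 6qF3 (128709994 to 128710446, 3.2 kb from 128713643 to 128714688). The others were 8.37 kb apart in 6qB1 (39379362 to 39379880), 9.65 kb in 6qC1 (72340562 to 72341042) and 9.83 kb in 6qC3 (82964327 to 82965070). At these 6 sites the lists thus had neighbouring peaks with no base in common.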

How the data were processed

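The submitters' processing notes name Bowtie 0.12.3 as the tool and mm9 as the build. How peaks were called, with which threshold, control and filters, is not given in the sources used. Each deposited file lists chromosome, start and end of peaks, with no score or read count, so depth is unknown and peaks could not be ranked by strength. Starts are printed counted from 1. Distances are edge to edge, and a peak belongs to the band or window of its midpoint. Chromosome lengths came from GenomeInfoDb 1.38.1 and Giemsa bands from circlize 0.4.16 (R 4.3.3), both for mm9, and the first 3 Mb were left out of densities except on chromosome Y. Counts used Python 3.11.15, pandas 2.3.3 and scipy 1.17.1, and the functions were checked on simulated lists. Genes and sequence at the peaks were not used here, since no mm9 annotation or genome was used. Regions named were the first and last peaks, those in the last 1 Mb, the 10 widest, smallest gaps, longest empty stretches, densest window and shared regions. Members and rules were chosen with earlier results of these data known. The stretches of 3 and 4 peaks, the pairs within 10 kb and the 60 Mb bound for the widest peaks were chosen after their values were seen. Alternatives covered windows, distances, the wider 50% of peaks and merging within 1 kb.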

Additional observations from a re-analysis of the deposited data

How the results depend on the processing

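Changing 1 choice at a time, 29 of 42 settings left the value within the 95% counting interval of the value reported and 13 moved it. With the wider 50% of each list in place of a stricter threshold, the density fell to 0.737 per Mb in MEFs and 0.177 per Mb in foetal liver, the median width was 1624 and 909 bp, and the MEF share with a neighbour within 10 kb was 10.2%. These follow in part from the construction, since fewer and wider peaks remain. With peaks within 1 kb merged, that MEF share was 8.76%, since merging removes the closest pairs. A neighbour within 1 kb was found for 8.37% of MEF and 0% of foetal liver peaks, and within 100 kb for 38.4% and 40%. The last 5 Mb held 13.3% of MEF peaks of chromosome 6, against 8.71% on the other chromosomes without Y. Peaks within 10 kb of the other list made up 3.94% in MEFs and 17.8% in foetal liver. No replicate could be left out, since each cell type has 1 library. No paired analysis was possible because each group has 1 sample. With neither depth nor input used here, regions that gather reads in any library were not separated from ATRX binding, and 45 foetal liver peaks give wide intervals.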

Other observations

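Part of the MEF peaks of band 6qG3 had the least variable run of 10 successive distances on chromosome 6, chosen after its values were seen. The 11 peaks from 145058349 to 146359294 had 10 successive midpoint distances of 45.3 to 220.02 kb, with a mean of 130 kb and a coefficient of variation of 0.398. That was the second lowest value for 10 successive distances in MEFs among the 20 chromosomes with enough peaks, and the median over all such windows of chromosome 6 was 1.2. No foetal liver peak lay in this stretch. Over 20 distances the lowest value on chromosome 6 was 0.696, the lowest of 19 chromosomes, and over 30 it was 0.957, the seventh lowest. The lowest window of a chromosome cannot lie above the median of its windows. Chromosomes with more peaks also offer more windows, so neither that median nor these ranks test for even spacing.

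In the RefSeq gene table of GRCm38.p6, a later build, the last 9 protein-coding genes of chromosome 6 are, in order toward the distal end, Ipo8, Caprin2, Sinhcaf, Dennd5b, Etfbkmt, Amn1, Resf1, Bicd1 and Gm21814. Ipo8 encodes a nuclear import receptor, Resf1 a factor in the silencing of retroelements and Bicd1 an adaptor of the dynein motor. None of these genes was matched to a peak of the distal group, since the peaks are in mm9.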
